A study of Mus musculus with 20 samples.

Results

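The effect of losing STING in cholestatic mouse liver was measured by comparing 5 libraries from bile duct-ligated STING knockout mice with 5 libraries from bile duct-ligated wild-type mice, 10 of the 20 libraries of the series. The other 10 came from sham-operated mice of both genotypes, 5 of each. Of 54532 gene entries in the deposited table, the 13022 with at least 0.5 FPKM (fragments per kilobase of transcript, scaled to sequencing depth) in at least 5 of the 10 ligated libraries were tested. Polyadenylated RNA of whole liver was sequenced, and ligation had lasted 7 days. The titles give the surgery (BDL or Sham), the genotype (Wt or KO) and a number for each library. The knocked-out gene is named only in the series title, and no label gives the allele, strain, sex or age of the mice. The design text of the series also mentions Abcb4 deficiency, and such mice are not analysed here. No label says whether each library is 1 animal, and a p-value here reflects only how these libraries vary, which may be partly technical.

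STING, encoded by Tmem173, is an adaptor in the membrane of the endoplasmic reticulum. It is activated by the cyclic dinucleotide that the enzyme cGAS makes when it meets DNA in the cytosol, and it then recruits the kinase TBK1, which phosphorylates the transcription factor IRF3 and leads to transcription of type I interferon genes. Secreted interferon acts through its receptor and transcription factors, STAT2 and IRF9 among them, which bind interferon-stimulated response elements in the promoters of interferon-stimulated genes. Tying off the bile duct causes cholestasis, in which bile acids accumulate, bile duct cells proliferate, and inflammation and scarring follow. In the text below, "rose" and "fell" refer to the knockout relative to wild type after ligation, and only to genes that passed the test.

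Depth was 14.95 to 18.6 M fragments on genes per ligated library, recovered from the FPKM values, and 1 fragment equalled 0.047 to 0.073 FPKM for a transcript 1 kilobase long. In a principal component analysis of the 13022 genes, component 1 (43.3% of the variance) set 2 knockout libraries, BDL_KO_2248 at -66.2 and BDL_KO_2359 at -51.6, apart from the other 8 at -6.52 to 32.9. The summed FPKM of 19 hepatocyte markers was 73605 and 66734 in these 2 libraries, 39366 to 44839 in the other 3 knockout libraries and 28366 to 38955 in wild type. The summed FPKM of 17 cholangiocyte markers was 78.1 and 108, against 389 to 624 in the other knockout libraries and 275 to 673 in wild type. That of 10 Kupffer cell markers was 260.3 and 329.8, against 606 to 895 and 652 to 968. That of 15 T and NK cell markers was 1.68 and 2.49, against 7.08 to 12.7 and 5.07 to 20.3. These lists were thus low in the 2 libraries. That of 14 stellate cell and fibroblast markers was also low, at 36.7 and 40.4, against 113 to 115 and 61.3 to 80.2. That of 13 neutrophil markers was 12.5 and 11.4, against 15.2 to 19.8 and 17.0 to 51.6. The summed FPKM of 17 sinusoidal endothelial markers was 61.7 and 49.4, within the wild-type range of 48.7 to 65.6. It was 93.5 to 105 in the other knockout libraries. That of 9 B and plasma cell markers was 55.6 and 25.6, against 41.6 to 103 in the other knockout libraries and 12.0 to 26.9 in wild type. In bulk liver RNA, fewer cells of a type and less RNA per cell cannot be told apart. The group results below are therefore also given without both libraries. Y-linked transcripts marked 3 wild-type and 2 knockout libraries, and Xist, the RNA of the inactive X chromosome, marked 2 wild-type and 3 knockout libraries.

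**Figure D1:**
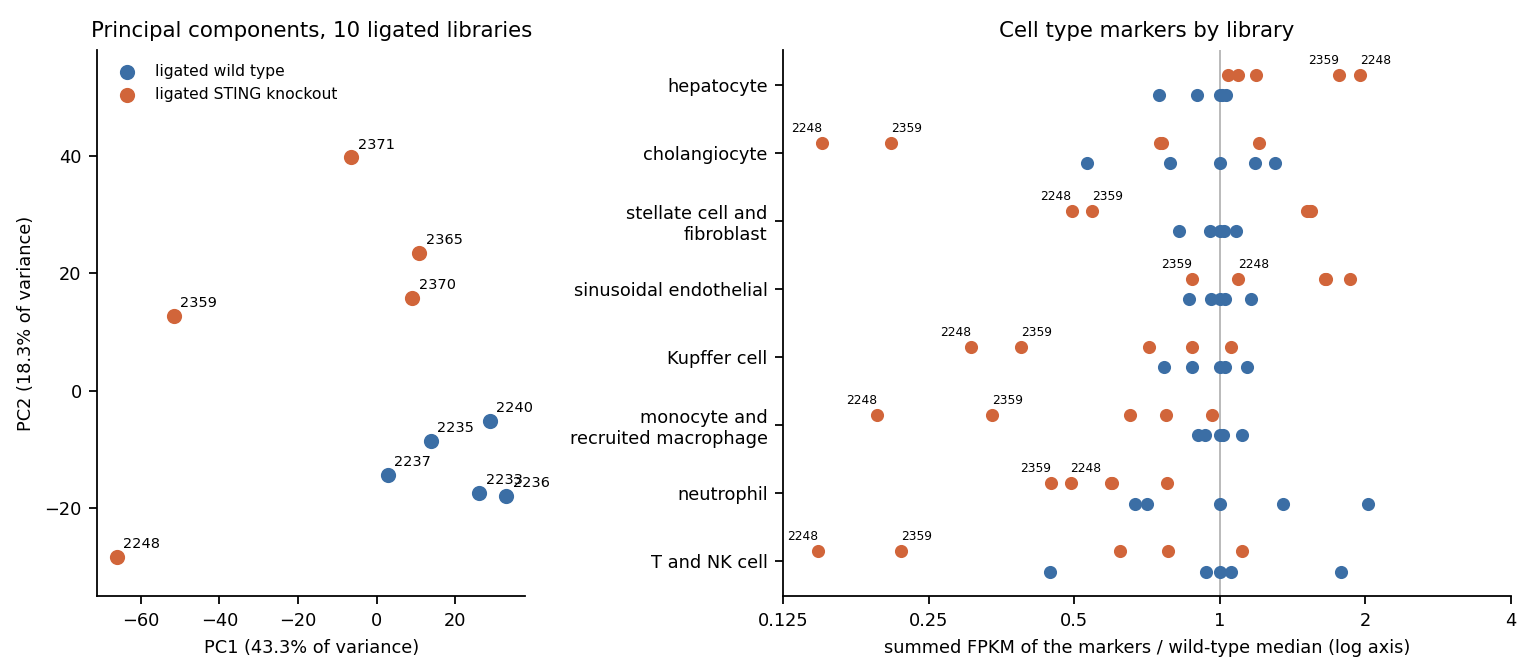
Left, the first and second principal components of the 13022 tested genes on the log2(FPKM + 0.5) scale, 1 point per ligated library with its number. Right, the summed FPKM of each cell type's markers in each library divided by the wild-type median, on a log axis; BDL_KO_2248 and BDL_KO_2359 are numbered and hold the highest hepatocyte and the lowest cholangiocyte, Kupffer cell and monocyte marker levels.

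Tmem173 itself was lower in the ligated knockout. It measured 2.89, 2.6, 4.6, 3.91 and 4.2 FPKM in BDL_Wt_2233, BDL_Wt_2235, BDL_Wt_2236, BDL_Wt_2237 and BDL_Wt_2240, and 0.638, 0.84, 1.38, 2.57 and 1.66 in BDL_KO_2248, BDL_KO_2359, BDL_KO_2365, BDL_KO_2370 and BDL_KO_2371, the order used for all values below. The groups did not overlap, but the highest knockout value, in BDL_KO_2370, was close to the lowest wild-type value. The difference was -1.17 ± 0.26 log2 units (mean ± standard error, limma adjusted p = 0.0477, exact permutation p = 0.00794, two-sided, the smallest that 5 against 5 can give), or -0.81 without BDL_KO_2248 and BDL_KO_2359 (adjusted p = 0.0831). The call was lost without any 1 library other than BDL_KO_2370, with adjusted p up to 0.137. No label gives the part of the gene that was deleted, so the transcript that remained is only a partial check of the labels. Of 100 tested genes within 10 Mb of Tmem173 on the same chromosome, 2 passed, Tmem173 and Dcp2, near the 2.23% of all tested genes.

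Most genes that changed were lower in the knockout. Of the 13022 genes tested, 290 differed (2.23%, limma adjusted p under 0.05), 230 lower (1.77%) and 60 higher (0.461%). Of these, 148 were lower and 15 higher by at least 2-fold. In 278 of the 290 the 5 knockout libraries did not overlap the 5 wild-type libraries, against 756 (5.81%) of all tested genes. The calls were made on the same libraries, so this is largely a consequence of the selection and not separate evidence. Over all tested genes the median difference was 0.01 log2 units in the FPKM as deposited. Rescaling to TPM (FPKM brought to the same sum in each library) moved that median to -0.26 and scaling to total fragments to -0.21, and the share of called genes that were higher went from 20.7% to 3.88% (206 called) and 7.25% (193 called). With BDL_KO_2248 and BDL_KO_2359 left out, 331 genes differed, 193 lower and 138 higher, of which 172 were shared with the 290. The number of calls moved by over 1.5 times without BDL_Wt_2233 (105), BDL_Wt_2235 (187), BDL_Wt_2236 (106), BDL_Wt_2240 (126), BDL_KO_2359 (150), BDL_KO_2371 (183) or BDL_KO_2370 (715). Of 67 called genes described with their values, all kept their direction as TPM and without BDL_KO_2248 and BDL_KO_2359. As TPM 22 of them did not pass, which were Tmem173, Cyp2c29, Acss2, Fasn, Lars2, Qdpr, Ehd3, Fads1, Tlr7, Tnfaip3, Icam1, Fcgr1, Igkc, Nsdhl, Gsdmd, Bid, Nags, Igha, Ptprb, Adgrf5, Btnl9 and Acaca. With BDL_KO_2248 and BDL_KO_2359 left out, 18 did not pass, which were Tmem173, Cyp2c29, Qdpr, Khk, H2-T23, Tlr13, Tnfaip3, Icam1, Nfkbiz, Ccl12, Nsdhl, Tm7sf2, Hilpda, Steap4, Gsdmd, Bid, Adgrf5 and Wisp2.

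**Figure D2:**
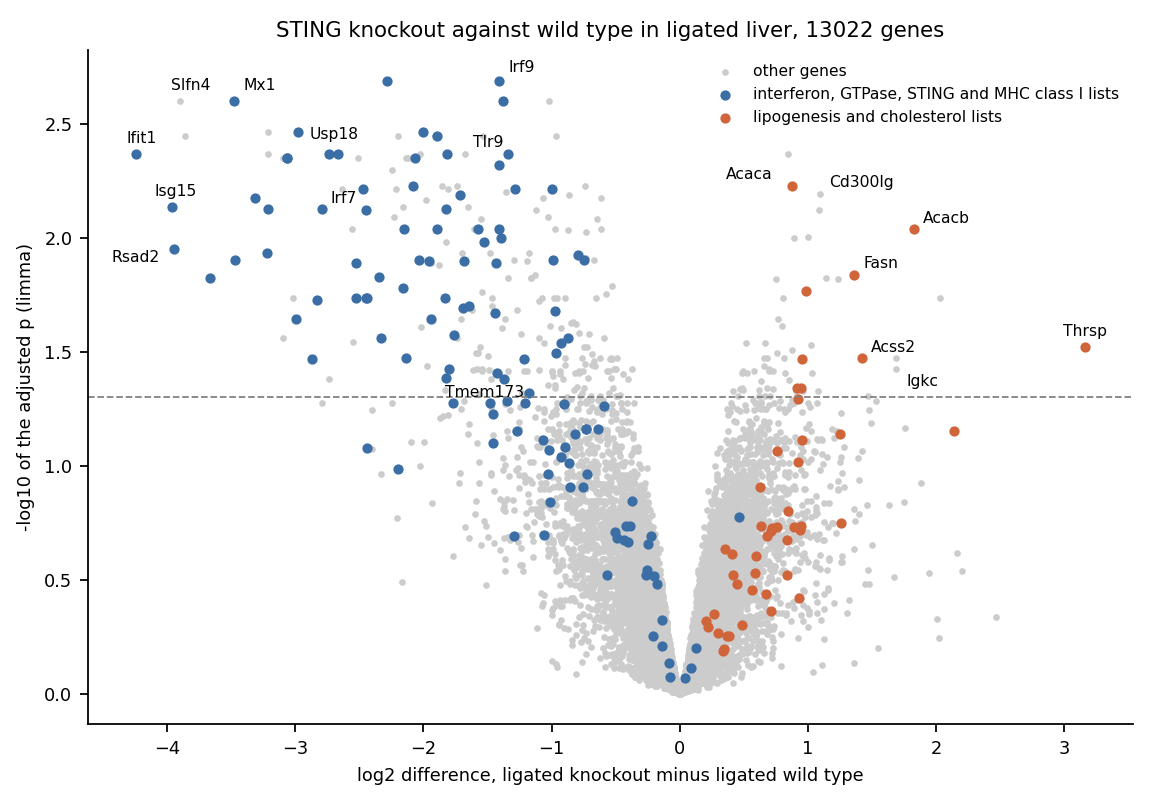
The log2 difference between ligated knockout and ligated wild type against -log10 of the limma adjusted p for each of the 13022 genes; the dashed line marks an adjusted p of 0.05. Genes of the interferon, GTPase, STING and MHC class I lists (blue) reach -4.25 (Ifit1) and genes of the lipogenesis and cholesterol lists (orange) reach 3.16 (Thrsp).

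The antiviral genes that interferon induces held more called genes than any other list. Of 50 tested members of the list of interferon-stimulated antiviral genes, 43 fell and none rose, and all 50 had a difference below 0, with a median of -1.82 log2 units. Ifit1, whose protein binds foreign RNA caps, measured 62.4, 46.1, 80.4, 17.5 and 109 FPKM in wild type and 0.719, 1.31, 3.67, 4.39 and 3.75 in the knockout. The highest knockout value lay below the lowest wild-type value, and Ifit1 fell by 4.25 ± 0.52 log2 units (limma adjusted p = 0.00426). Isg15, a ubiquitin-like modifier, measured 139, 74.4, 207, 34.8 and 317 FPKM in wild type and 3.4, 4.32, 11.6, 10.9 and 9.65 in the knockout, and fell by 3.96 ± 0.57 (adjusted p = 0.00731). Within wild type the spread was wide, BDL_Wt_2237 being lowest and BDL_Wt_2240 highest for both genes, and within the knockout BDL_KO_2248 and BDL_KO_2359 were lowest. Rsad2, which encodes the antiviral radical SAM enzyme viperin, fell by 3.94 ± 0.63 and Mx1, a dynamin-like GTPase, by 3.48 ± 0.35 (adjusted p = 0.0111 and 0.00249). The tetratricopeptide proteins Ifit2 and Ifit3 fell by 3.21 ± 0.47 and 3.66 ± 0.62, the near copy Ifit3b fell by 3.47 ± 0.57 and Ifi44 fell by 3.32 ± 0.47 (adjusted p = 0.00747, 0.015, 0.0125 and 0.00663). Ifit3 and Ifit3b share sequence, so their single values are uncertain, and Ifit3 lost its call without BDL_Wt_2233 or BDL_Wt_2236 (adjusted p up to 0.0552).

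The mean log2(FPKM + 0.5) of the 50 antiviral genes was 3.40 to 4.75 in the 5 wild-type libraries, 2.47 to 2.66 in BDL_KO_2365, BDL_KO_2370 and BDL_KO_2371, and 1.42 and 1.58 in BDL_KO_2248 and BDL_KO_2359. All 5 knockout libraries thus lay below all 5 wild-type libraries, with or without the 2 that stand apart. With both left out, 38 of the 50 fell, with a median of -1.36, and as TPM 39 fell, with a median of -2.28. The count moved by over 1.5 times without BDL_Wt_2233 or BDL_Wt_2236, to 27 in each case. The summed FPKM of 19 monocyte and recruited macrophage markers was 80.0 to 393 in the knockout and 368 to 454 in wild type, so that 4 of 5 knockout libraries lay below all wild-type libraries, and their part in this result was not tested.

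Promoters of these genes were searched for the core of the interferon-stimulated response element, GAAANNGAA, on both strands (TTCNNTTTC on the other), in the 300 bases from 250 before to 50 after the start of the gene, from RefSeq on GRCm38.p6. Stretches are shown only for genes with a match, so they do not show how common matches were among strongly lowered genes. No match was recorded for Slfn4, Mx1, Ifit2, Ly6c2 or Ms4a4c, also among the largest decreases. Whether a promoter was found for each of these is not given. The promoter of Acacb, which rose, held 1 match. The following 60-base stretches come from the promoters of 5 of the most strongly lowered genes. They are read 5′ to 3′ on the strand of the gene, with the matches in capitals.
Ifit1: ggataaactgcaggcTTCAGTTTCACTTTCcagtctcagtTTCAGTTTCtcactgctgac
Isg15: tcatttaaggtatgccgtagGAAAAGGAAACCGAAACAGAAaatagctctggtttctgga
Rsad2: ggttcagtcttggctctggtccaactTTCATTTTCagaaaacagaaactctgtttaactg
Ifit3: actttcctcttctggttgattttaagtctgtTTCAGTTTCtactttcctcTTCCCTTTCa
Tgtp1: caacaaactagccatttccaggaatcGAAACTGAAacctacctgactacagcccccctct
They lie at chr19:34640765-34640824 (Ifit1, plus strand), chr4:156200857-156200916 (Isg15, minus), chr12:26456538-26456597 (Rsad2, minus), chr19:34583377-34583436 (Ifit3, plus) and chr11:48992290-48992349 (Tgtp1, minus). The stretch from Ifit3b, at chr19:34607773-34607832 on the plus strand, has the same letters as that from Ifit3. Ifit1 and Isg15 hold 3 matches each in the stretch shown, and in both genes some of them overlap. A match was present in 63 of 172 promoters of genes that fell (36.6%), in 20 of 39 of the antiviral list (51.3%) and in 9 of 10 of the IRG and GBP list (90.0%). It was present in 700 of the 9303 promoters found for tested genes (7.52%) and in 4 of 42 of genes that rose (9.52%). A match describes the letters only and is not evidence of binding.

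The interferon-inducible GTPases of the IRG and GBP families, which act on membranes around intracellular pathogens, were also lower in part. Of 18 tested, 13 fell and none rose, with all 18 below 0 and a median of -2.04. Igtp (Irgm3) measured 53.7, 42.3, 79.3, 93.2 and 173 FPKM in wild type and 9.91, 11.5, 9.35, 11.6 and 14.9 in the knockout. The groups did not overlap, and for this gene the 2 libraries that stand apart were not lower than the rest of the knockout group. Over the 18 genes, the mean log2(FPKM + 0.5) was 2.92 to 4.64 in wild type, 1.90 to 2.01 in the other 3 knockout libraries, and lower, at 1.24 and 1.14, in BDL_KO_2248 and BDL_KO_2359. Igtp fell by 2.74 ± 0.33 log2 units (adjusted p = 0.00426, limma), and differed by -2.68 without BDL_KO_2248 and BDL_KO_2359. Tgtp1 fell by 3.22 ± 0.52 (adjusted p = 0.0116), with 13.4, 6.79, 25.1, 35.5 and 65.3 FPKM in wild type and 3.53, 1.06, 2.02, 1.93 and 1.81 in the knockout. The guanylate-binding protein gene Gbp3 fell by 2.83 ± 0.51 (adjusted p = 0.0186), and its call was lost without BDL_Wt_2233, BDL_Wt_2236 or BDL_Wt_2240 (adjusted p up to 0.0648). These families hold near-identical copies, so single values are uncertain. Leaving out BDL_KO_2248 and BDL_KO_2359, 9 of 18 fell, with a median of -1.66, and the count was 7 without BDL_Wt_2233 or BDL_Wt_2236.

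**Figure D3:**
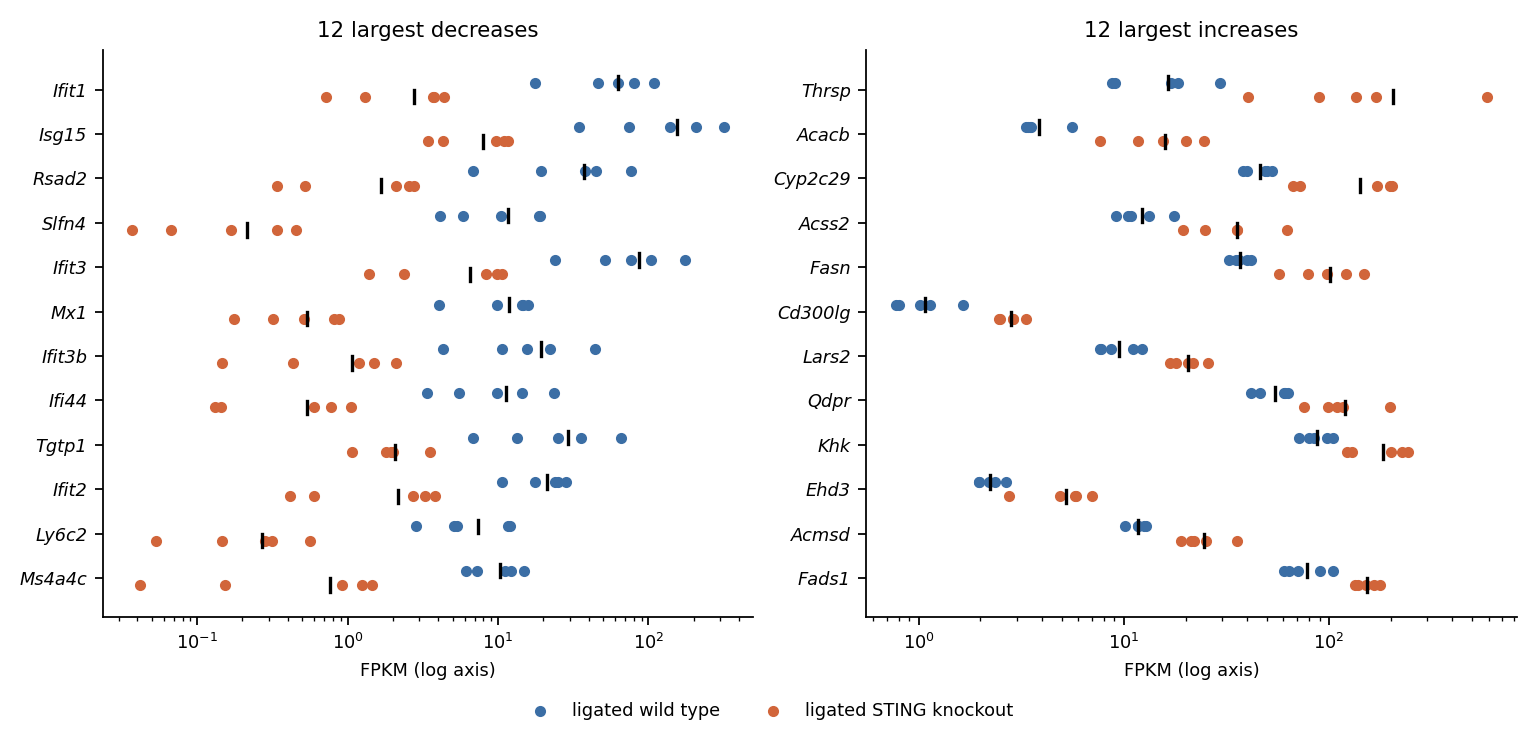
FPKM on a log axis in each of the 5 ligated wild-type (blue) and 5 ligated knockout (orange) libraries for the 12 protein-coding genes with the largest decrease and the 12 with the largest increase; black bars are group means. By the rule that chose these genes, the 2 groups of points do not overlap in any row.

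Genes that carry the interferon signal were unequal. Of 16 interferon receptors, STATs and IRFs, 5 fell and none rose (median -0.77), with 5 also without BDL_KO_2248 and BDL_KO_2359, and 9 without BDL_KO_2370. Irf7, the factor that amplifies interferon transcription, measured 78.5, 50.4, 107, 65.3 and 128 FPKM in wild type and 5.76, 5.94, 12.8, 24.4 and 16.7 in the knockout. Its groups did not overlap, and it fell by 2.79 ± 0.41 log2 units (limma adjusted p = 0.00747). Usp18, the protease that removes ISG15 and restrains the receptor, fell by 2.98 ± 0.32 (adjusted p = 0.00341). The interferon-activated factors Irf9 and Stat2 fell by 1.41 ± 0.12 and 0.80 ± 0.13 (adjusted p = 0.00203 and 0.0118). Irf9 measured 15.2, 14.7, 15.2, 12.1 and 15.4 FPKM in wild type and 4.06, 4.46, 5.55, 6.32 and 5.54 in the knockout. The receptor subunits Ifnar1 and Ifnar2 did not pass, at -0.14 ± 0.10 and -0.22 ± 0.09 log2 units (adjusted p = 0.473 and 0.202).

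In the list of the cGAS-STING pathway and DNA sensing, 5 of 17 tested genes fell and none rose (median -0.59), and 5 without BDL_KO_2248 and BDL_KO_2359. The count was 9 without BDL_KO_2370. Besides Tmem173 these were the Z-nucleic acid sensor Zbp1, which fell by 3.06 ± 0.39, the DNA-binding HIN-200 genes Ifi204 and Ifi205, by 2.07 ± 0.27 and 1.57 ± 0.24, and the dNTP hydrolase Samhd1, by 1.44 ± 0.24 (adjusted p = 0.00446, 0.00446, 0.00912 and 0.0128, limma). All of these except Tmem173 kept their calls when any 1 library was left out. Mb21d1, the gene of cGAS, measured 0.613, 0.725, 0.702, 0.644 and 0.728 FPKM in wild type and 0.089, 0.097, 0.366, 0.372 and 0.442 in the knockout, under 1 FPKM throughout. All knockout values of Mb21d1 lay under the filter of 0.5 FPKM, so it was tested only through wild type. Its lack of overlap was therefore fixed by the filter. Its difference of -0.64 ± 0.16 did not pass (adjusted p = 0.0691). The kinase gene Tbk1 (-0.39 ± 0.15, adjusted p = 0.184), the sensor Aim2 (-0.59 ± 0.14, adjusted p = 0.0543) and Irf3 (0.04 ± 0.09, adjusted p = 0.849) did not pass either, and the sign for Irf3 turned under 6 other settings. The exonuclease gene Trex1 was listed at 0 in all 10 libraries.

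Of 20 genes of MHC class I antigen presentation, 5 fell and none rose, all 20 were below 0, and the median was -0.77. The peptide transporter Tap1 fell by 1.83 ± 0.32 (adjusted p = 0.0182, limma) and the nonclassical class I gene H2-Q4 by 0.99 ± 0.16 (adjusted p = 0.0125), from 38.2, 31.1, 37.1, 46.9 and 54.2 FPKM in wild type to 17.3, 17.2, 22.9, 23.2 and 21.7 in the knockout. The class I gene H2-T23 fell by 0.96 ± 0.19 (adjusted p = 0.0319). Class I genes share sequence, so single values are uncertain. Tap1 lost its call without BDL_Wt_2233, BDL_Wt_2236 or BDL_Wt_2240 (adjusted p up to 0.0639) and H2-T23 without BDL_Wt_2233, BDL_Wt_2236, BDL_Wt_2237, BDL_Wt_2240 or BDL_KO_2359 (up to 0.0933). In the absence of BDL_KO_2248 and BDL_KO_2359, 4 of the 20 fell. The count was 1 without BDL_Wt_2233, BDL_Wt_2236 or BDL_Wt_2240, 3 without BDL_Wt_2237, 2 without BDL_KO_2359 and 8 without BDL_KO_2370. None of 9 genes of MHC class II passed (limma, median -0.81), and without BDL_KO_2248 and BDL_KO_2359 that median was 0.25, while 1 fell without BDL_KO_2370. Cd74, the invariant chain, measured 135, 87.4, 136, 152 and 147 FPKM in wild type and 22.6, 22.9, 178, 153 and 148 in the knockout, so only BDL_KO_2248 and BDL_KO_2359 lay below the wild-type range.

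Among innate receptors, 5 of 14 genes of Toll-like receptor signalling fell and none rose (median -0.82), and 3 without BDL_KO_2248 and BDL_KO_2359. Tlr9, the endosomal receptor for unmethylated DNA, measured 1.74, 1.5, 2.82, 0.982 and 1.76 FPKM in wild type and 0.0845, 0.115, 0.17, 0.409 and 0.175 in the knockout. It was low throughout the knockout group and fell by 1.68 ± 0.21 (adjusted p = 0.00426, limma). The RNA receptors Tlr3, Tlr13 and Tlr7 fell by 1.18 ± 0.19, 1.10 ± 0.21 and 1.00 ± 0.21 (adjusted p = 0.0116, 0.0273 and 0.0387). These receptors also act in endosomes. Tlr13 lost its call without BDL_Wt_2233, BDL_Wt_2236, BDL_Wt_2237, BDL_Wt_2240, BDL_KO_2359 or BDL_KO_2371 (adjusted p up to 0.0918) and Tlr7 without any 1 library other than BDL_KO_2365 and BDL_KO_2370 (up to 0.116). The count was 2 without BDL_Wt_2233, BDL_Wt_2236, BDL_Wt_2240, BDL_KO_2359 or BDL_KO_2371, and 3 without BDL_Wt_2235, BDL_Wt_2237 or BDL_KO_2248.

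Of 18 NF-kB targets and cytokines, 3 fell and none rose (median -0.77), and none without BDL_KO_2248 and BDL_KO_2359. The feedback deubiquitinase Tnfaip3 measured 6.58, 5.31, 8.35, 4.03 and 6.8 FPKM in wild type and 0.549, 1.66, 2.02, 3.99 and 1.24 in the knockout. BDL_KO_2370 and BDL_Wt_2237 were nearly equal, and Tnfaip3 fell by 1.62 ± 0.34 (adjusted p = 0.0378, limma). The adhesion molecule Icam1 and the nuclear NF-kB regulator Nfkbiz fell by 1.00 ± 0.21 and 0.85 ± 0.16 (adjusted p = 0.0384 and 0.0236). Of 20 chemokine ligands 1 fell, the monocyte chemokine Ccl12, by 1.58 ± 0.31 (adjusted p = 0.0318), with a median of -0.86, and none without BDL_KO_2248 and BDL_KO_2359. In the cell death list the pore-forming Gsdmd and the apoptosis gene Bid fell, by 0.66 ± 0.14 and 0.44 ± 0.09 (adjusted p = 0.0362 and 0.0395), of 21 tested, and none without BDL_KO_2248 and BDL_KO_2359. Each of these 6 calls was lost without BDL_Wt_2233, BDL_Wt_2235, BDL_Wt_2236, BDL_Wt_2240 or BDL_KO_2359, with adjusted p up to 0.128. Without BDL_KO_2370, 10, 7 and 6 genes of these lists fell, and 2 chemokine genes fell without BDL_KO_2365 or BDL_Wt_2237.

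Some markers of monocytes and recruited macrophages fell. Of 18 tested, 6 fell and none rose, all 18 were below 0, and the median was -1.09. Ly6c2, the surface antigen of inflammatory monocytes, measured 5.07, 2.87, 11.6, 5.36 and 12.0 FPKM in wild type and 0.0536, 0.146, 0.315, 0.56 and 0.282 in the knockout. The highest knockout value lay below the lowest wild-type value, and Ly6c2 fell by 3.21 ± 0.35 (adjusted p = 0.00341, limma). Ms4a4c fell by 3.21 ± 0.39 and Plac8 by 1.94 ± 0.32 (adjusted p = 0.00426 and 0.0128). The high-affinity IgG receptor gene Fcgr1 fell by 1.97 ± 0.41 (adjusted p = 0.0362), but lost its call without BDL_Wt_2233, BDL_Wt_2235, BDL_Wt_2236, BDL_Wt_2237, BDL_Wt_2240 or BDL_KO_2359 (adjusted p up to 0.107). Leaving out BDL_KO_2248 and BDL_KO_2359, 6 fell, with a median of -0.61, and 10 fell without BDL_KO_2370. The summed FPKM of all 19 markers was 368 to 454 in wild type, 266 to 393 in BDL_KO_2365, BDL_KO_2370 and BDL_KO_2371, and 80.0 and 138 in BDL_KO_2248 and BDL_KO_2359, and 1 marker, S100a4, was at 0 in at least 1 library.

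Other blood and liver cell lists held few or no calls. None of 10 Kupffer cell markers (median -0.60), 11 lipid-associated macrophage genes (-0.83), 5 neutrophil markers (-0.78), 5 T and NK cell markers (-0.53), 15 cholangiocyte markers (-0.67) or 13 stellate cell and fibroblast markers (0.14) passed (limma). Without BDL_KO_2248 and BDL_KO_2359 these medians were -0.16, -0.39, -0.58, -0.01, -0.08 and 0.66, and 3 stellate cell markers rose. With 1 library left out, 2 lipid-associated macrophage genes fell and 1 rose without BDL_KO_2370 and 1 fell without BDL_KO_2365, 1 neutrophil marker fell without BDL_KO_2370 or BDL_Wt_2235, and 1 cholangiocyte marker fell without BDL_KO_2365. Of the T and NK cell markers Cd8b1, Trac, Cd2, Ncr1 and Klrb1c were at 0 in at least 1 library, and none was at 0 in all 10. The Kupffer cell scavenger protein gene Cd5l measured 246, 168, 192, 246 and 217 FPKM in wild type and 34.4, 69.8, 181, 227 and 145 in the knockout, with overlap (adjusted p = 0.258). The neutrophil alarmin S100a8 differed by -0.83 ± 0.27 (adjusted p = 0.129). Spp1, which encodes osteopontin and marks bile duct cells, measured 524, 439, 580.0, 199.6 and 334 FPKM in wild type and 55.2, 73.6, 539.6, 305 and 336 in the knockout. The 3 other knockout libraries lay within the wild-type range and BDL_KO_2248 and BDL_KO_2359 below it (adjusted p = 0.369). Of 16 sinusoidal endothelial markers none passed (median 0.47), and 8 rose without BDL_KO_2248 and BDL_KO_2359 (median 0.66) and 1 without BDL_KO_2359 alone. The lectin gene Clec4g, 1 of the 8, differed by 0.83 ± 0.22 in all 10 libraries (adjusted p = 0.083) and by 1.09 without both (adjusted p = 0.032). Of 4 tested B and plasma cell markers 1 rose, the immunoglobulin kappa constant gene Igkc, by 1.68 ± 0.35 (adjusted p = 0.0374), from 22, 8.95, 13.3, 9.68 and 16.1 FPKM in wild type to 50.4, 22.6, 44.8, 35.6 and 88.6 in the knockout, with the call lost without BDL_Wt_2235, BDL_Wt_2236, BDL_Wt_2237, BDL_Wt_2240, BDL_KO_2365, BDL_KO_2248 or BDL_KO_2371 (up to 0.104).

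**Figure D4:**
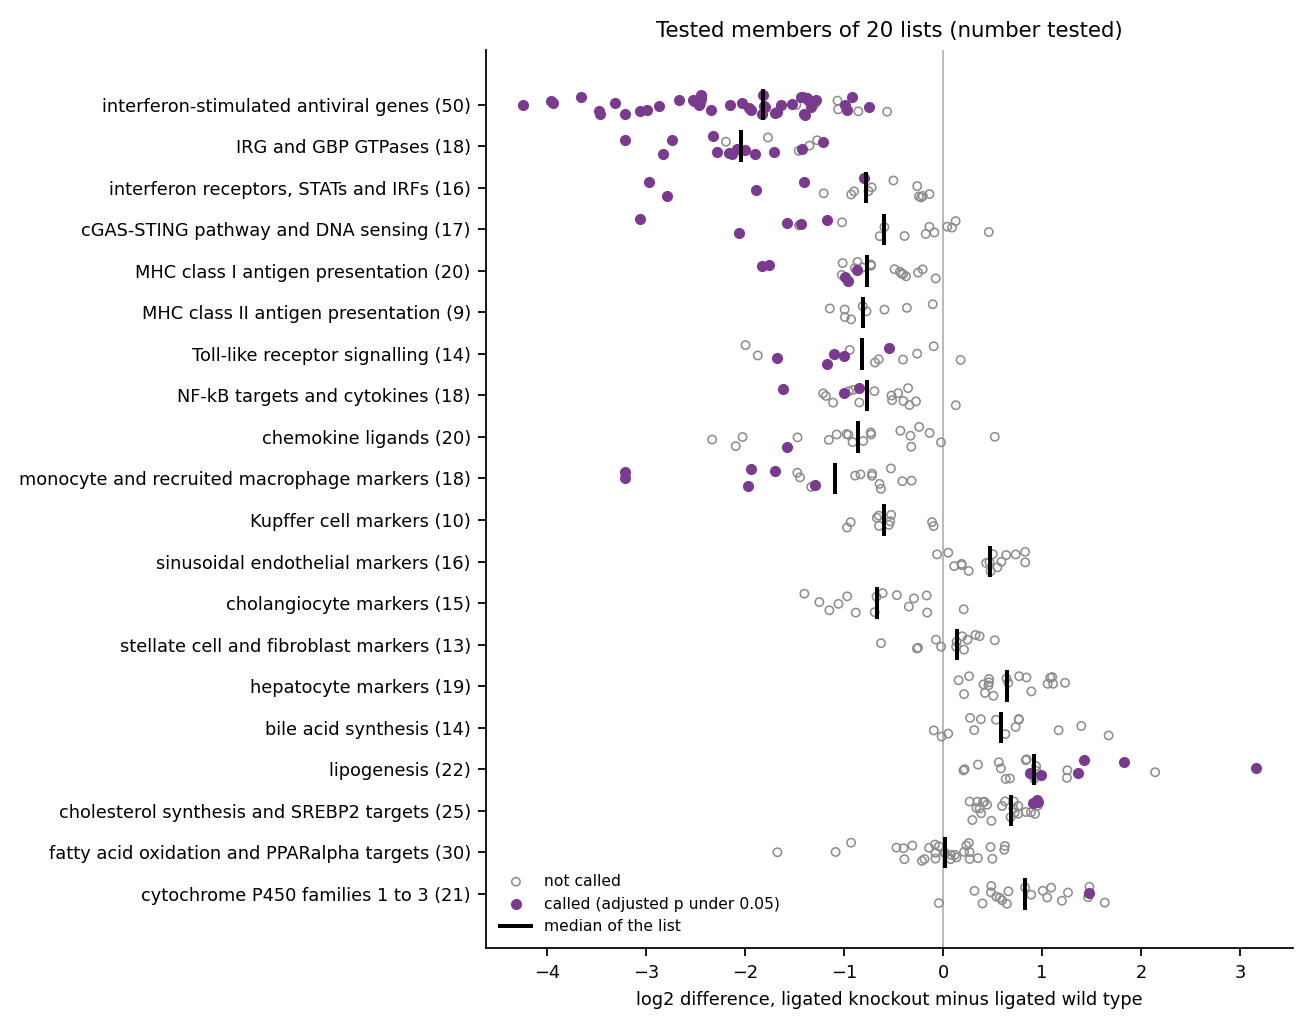
The log2 difference between ligated knockout and ligated wild type of every tested member of 20 lists, 1 circle per gene, with called genes filled and the median of each list as a black bar. The medians of the antiviral and GTPase lists lie at -1.82 and -2.04, that of lipogenesis at 0.92, and that of all tested genes is 0.01.

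Fatty acid synthesis held the largest single increase and more of the genes that rose than any other list. Of 22 lipogenesis genes, 6 rose and none fell, all 22 were above 0, and the median was 0.92 log2 units. Thrsp, a hepatic activator of lipogenesis, measured 8.74, 18.3, 9.09, 29.4 and 16.9 FPKM in wild type and 170.1, 591, 40.3, 89.0 and 135 in the knockout. BDL_KO_2359 held by far the highest value, and Thrsp rose by 3.16 ± 0.62 (adjusted p = 0.0299, limma), or by 2.36 without BDL_KO_2248 and BDL_KO_2359. Acacb, the mitochondrial acetyl-CoA carboxylase whose product malonyl-CoA restrains fatty acid oxidation, measured 3.35, 3.43, 3.52, 3.49 and 5.61 FPKM in wild type and 7.62, 20.0, 11.8, 15.5 and 24.6 in the knockout, and rose by 1.82 ± 0.28 (adjusted p = 0.00912). Fasn, the fatty acid synthase, measured 35.1, 39.6, 36.4, 32.5 and 41.5 FPKM in wild type and 56.9, 148, 79.2, 121 and 98.1 in the knockout, and rose by 1.36 ± 0.23 (adjusted p = 0.0145). Wild-type values of Fasn lay within a narrow range and each knockout value was above it. The acetyl-CoA synthetase Acss2, the desaturase Fads1 and the cytosolic acetyl-CoA carboxylase Acaca rose by 1.42 ± 0.29, 0.99 ± 0.17 and 0.88 ± 0.12 (adjusted p = 0.0337, 0.0171 and 0.00588). Srebf1, whose SREBP1 protein activates these genes, differed by 1.25 ± 0.32 and did not pass (adjusted p = 0.072).

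Without BDL_KO_2248 and BDL_KO_2359, 10 of the 22 lipogenesis genes rose, with a median of 1.06, and as TPM 2 rose, Thrsp and Acacb, with a median of 0.64. The count was 2 without BDL_Wt_2233 or BDL_Wt_2236. Thrsp lost its call without BDL_Wt_2233, BDL_Wt_2235, BDL_Wt_2236, BDL_Wt_2240, BDL_KO_2248 or BDL_KO_2371 (adjusted p up to 0.097), Acss2 without BDL_Wt_2233, BDL_Wt_2236, BDL_Wt_2237, BDL_Wt_2240, BDL_KO_2365 or BDL_KO_2371 (up to 0.104), and Fasn and Fads1 without BDL_Wt_2233 or BDL_Wt_2236 (up to 0.0524 and 0.063). Summed hepatocyte markers, given above, were also higher in the knockout, mainly in BDL_KO_2248 and BDL_KO_2359, and none of the 19 hepatocyte markers passed (median 0.64, or 0.33 without both). Their part in the result was not tested.

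Of 25 genes of cholesterol synthesis and SREBP2 targets, 3 rose and none fell, all 25 were above 0, and the median was 0.68, or 0.24 without BDL_KO_2248 and BDL_KO_2359, when 2 rose. The 3 were Ebp, Nsdhl and Tm7sf2, enzymes of the later steps after lanosterol, which rose by 0.96 ± 0.19, 0.95 ± 0.21 and 0.91 ± 0.20 (adjusted p = 0.0338, 0.0454 and 0.0453, limma). Ebp measured 51.5, 71.0, 47.3, 56.7 and 57.8 FPKM in wild type and 122, 167, 93.0, 82.8 and 102 in the knockout. None of the 3 rose without BDL_Wt_2233, BDL_Wt_2236, BDL_Wt_2237 or BDL_Wt_2240, or without BDL_KO_2248, with adjusted p up to 0.132. Of the whole list, 1 gene rose without BDL_KO_2248, BDL_KO_2359 or BDL_KO_2371. The letters TCACNCCAC of the sterol regulatory element (GTGGNGTGA on the other strand), searched in the same 300-base promoters, occurred in 107 of 9303 promoters of tested genes (1.15%), in 1 of 17 of the cholesterol list, in 1 of 17 of the lipogenesis list and in 0 of 42 of genes that rose.

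Other metabolic genes rose one by one. Among 21 genes of cytochrome P450 families 1 to 3 and their reductase 1 rose, the drug-metabolizing Cyp2c29, by 1.47 ± 0.33 (adjusted p = 0.0494, limma), with a list median of 0.83, and none without BDL_KO_2248 and BDL_KO_2359 (median 0.42). Among 18 genes of the urea cycle and amino acid breakdown 2 rose, and 2 without BDL_KO_2248 and BDL_KO_2359. They were Nags, which makes the activator of carbamoyl phosphate synthetase, by 0.76 ± 0.15, and Acmsd, which diverts tryptophan breakdown away from NAD synthesis, by 1.00 ± 0.16 (adjusted p = 0.0319 and 0.00991). Acmsd measured 10.2, 12.5, 11.7, 12.8 and 11.8 FPKM in wild type and 25.1, 35.5, 21.9, 19.0 and 21.3 in the knockout and kept its call when any 1 library was left out. The ketohexokinase gene Khk, which starts fructose breakdown, rose by 1.03 ± 0.22, the dihydropteridine reductase Qdpr by 1.08 ± 0.24 and the mitochondrial leucyl-tRNA synthetase Lars2 by 1.08 ± 0.16 (adjusted p = 0.0389, 0.0467 and 0.0075). Without BDL_KO_2248 and BDL_KO_2359 Khk and Qdpr differed by 0.76 and 0.83 and did not pass (adjusted p = 0.0754 and 0.0603). Cyp2c29, Khk and Qdpr each lost the call without any 1 wild-type library, BDL_KO_2248, BDL_KO_2359 or BDL_KO_2371 (Qdpr also without BDL_KO_2365), with adjusted p up to 0.14, 0.12 and 0.136, and Nags without BDL_Wt_2233, BDL_Wt_2235, BDL_Wt_2236, BDL_Wt_2240, BDL_KO_2248 or BDL_KO_2371 (up to 0.0995).

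The bile acid and cholestasis genes gave no calls. None of 14 bile acid synthesis genes (median 0.58), 16 bile acid and biliary lipid carriers (0.34), 12 nuclear receptors (0.15) or 30 fatty acid oxidation and PPARalpha targets (0.01) passed (limma), and none without BDL_KO_2248 and BDL_KO_2359. Without BDL_KO_2370 2 bile acid synthesis genes rose, and 1 carrier rose without BDL_KO_2365 or BDL_Wt_2237. Slc10a1, the sodium-dependent bile acid uptake carrier, measured 53.1, 81.5, 53.3, 139.8 and 50.5 FPKM in wild type and 320.1, 434, 78.1, 113 and 152 in the knockout. It was highest in BDL_KO_2248 and BDL_KO_2359, and the groups overlapped (adjusted p = 0.155). None of 24 matrix genes (-0.20), 20 p53 targets (-0.51), 25 cell cycle genes (0.14) or 18 sex-biased genes (0.98) passed, although 4 cell cycle genes and 1 matrix gene rose without BDL_KO_2248 and BDL_KO_2359. Without BDL_KO_2370 2 matrix genes and 1 p53 target fell, and 2 p53 targets fell without BDL_Wt_2237. Single members fell in 4 more lists, of 11, 15, 25 and 30 tested genes in the order below. As 1.77% of all tested genes fell, 1 call in a list of this size is not a result about the list. They were the EGF receptor ligand Btc, by 1.34 ± 0.23, the lipid droplet protein Hilpda, by 1.34 ± 0.28, the acute phase metalloreductase Steap4, by 1.54 ± 0.33, and complement C2, by 0.64 ± 0.10 (adjusted p = 0.015, 0.0384, 0.0384 and 0.00825). C2 kept its call when any 1 library was left out, Btc lost it without BDL_Wt_2233 or BDL_Wt_2236 (adjusted p up to 0.0552), and Hilpda and Steap4 lost it without BDL_Wt_2233, BDL_Wt_2235, BDL_Wt_2236, BDL_Wt_2240, BDL_KO_2359, BDL_KO_2248 or BDL_KO_2371 (up to 0.116). In all, 30 of the 49 lists examined held no called gene. At an unadjusted p under 0.05, 2639 of the 13022 genes passed.

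A pair of endothelial genes stood among the 12 largest increases. The luminal glycoprotein Cd300lg measured 0.774, 1.13, 0.802, 1.01 and 1.65 FPKM in wild type and 3.35, 2.46, 2.48, 2.88 and 2.87 in the knockout, rose by 1.09 ± 0.15 (adjusted p = 0.00637, limma) and kept its call when any 1 library was left out. The endocytic ATPase Ehd3, which marks sinusoidal endothelium in liver, measured 2.2, 2.36, 1.97, 1.97 and 2.66 FPKM in wild type and 2.74, 4.88, 5.85, 5.81 and 6.98 in the knockout and rose by 1.03 ± 0.20 (adjusted p = 0.0293), or by 1.30 without BDL_KO_2248 and BDL_KO_2359, but did not pass as TPM (adjusted p = 0.136). Its call was lost without BDL_Wt_2233, BDL_Wt_2235, BDL_Wt_2236, BDL_Wt_2237, BDL_Wt_2240, BDL_KO_2359 or BDL_KO_2371 (adjusted p up to 0.0951).

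Whether these differences were particular to ligated liver was tested by the interaction of genotype and surgery over all 20 libraries, in which 53 of 14059 genes passed (0.377%, limma). After sham surgery 20 of the 50 antiviral genes, 11 of the 18 GTPases and 15 of the 20 MHC class I genes were lower in the knockout (234 of all genes, 1.66%). These counts come from a fit over 20 libraries, unlike the counts after ligation above. With the 4 groups in the fit, 48, 18 and 13 genes of these lists were lower after ligation (786 of all genes). Of the 50 antiviral genes 4 passed the interaction, and none of the 18 GTPases did. Ifit1 differed by -4.25 ± 0.52 after ligation and -1.41 after sham surgery (interaction -2.83 ± 0.61, adjusted p = 0.0496), and Mx1 by -3.48 and -1.31 (-2.17 ± 0.41, adjusted p = 0.0322). Irf7 differed by -2.79 and -2.71, with no detectable interaction (-0.08 ± 0.46, adjusted p = 0.966). Of 22 lipogenesis genes 4 passed the interaction. Thrsp, Acacb and Acss2 were above 0 after both surgeries, and their interactions did not pass (adjusted p = 0.175, 0.103 and 0.165, limma). Fasn, Fads1, Srebf1 and Acaca had opposite signs after the 2 surgeries. After sham surgery alone only 1 of the 22 lipogenesis genes was called lower in the knockout. Fasn and Fads1 did not pass there (limma adjusted p = 0.216 and 0.742). Fasn differed by 1.36 after ligation and -0.47 after sham surgery (interaction 1.83 ± 0.28, adjusted p = 0.0119), Srebf1 by 1.25 and -1.29 (2.54 ± 0.42, adjusted p = 0.0171), and Acaca by 0.88 and -0.25 (1.12 ± 0.17, adjusted p = 0.0119). Tlr9 differed by -1.68 and -0.07 (-1.60 ± 0.26, adjusted p = 0.0146). Its mean was 0.175 ± 0.0695 FPKM in sham wild-type liver, close to that of 0.191 ± 0.128 in the ligated knockout (n = 5 each). Interactions called among the genes described numbered 16 in FPKM and 2 as TPM. Genes were chosen for the text by their difference after ligation, so the distance of the other genes from equality is not evidence of an interaction.

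**Figure D5:**
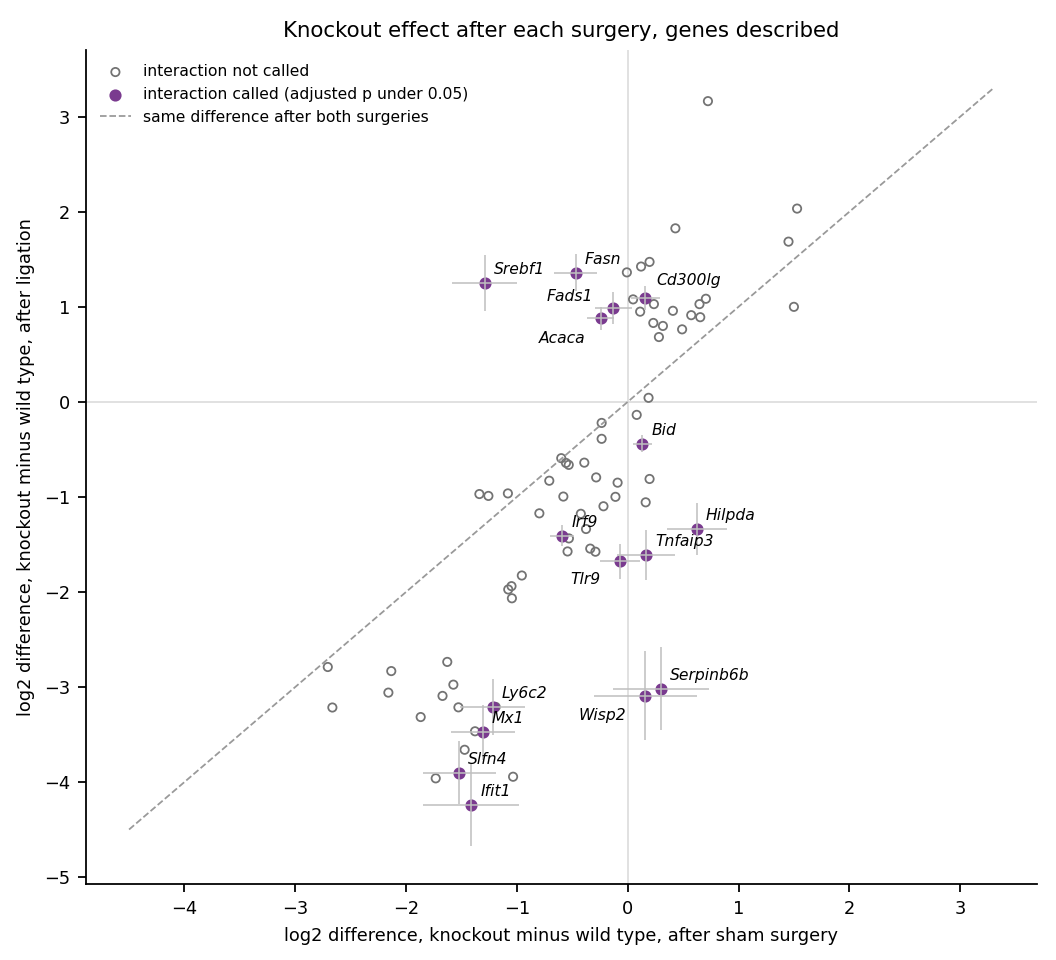
For each gene described, the log2 difference between knockout and wild type after ligation (vertical) against that after sham surgery (horizontal), from the fit over 20 libraries; the dashed line marks equal differences. Filled points with standard errors passed the interaction test, among them Fasn and Srebf1 above the line and Ifit1, Mx1 and Tlr9 below it.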

How the data were processed

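The authors deposited 1 table of FPKM values with 1 column per library. Per the submitters' processing notes, HISAT2 2.0.5, DESeq2 1.20.0, featureCounts 1.5.0-p3, CASAVA 1.8 and fastp took part, with GRCm38 and mm10 as builds and no role stated for each, and RNA was extracted with TRIzol per the labels' protocols. The annotation release was not given in the sources used here. Multiplied by exon lengths of GENCODE M21, low values came out as whole fragments (within 0.02) for 98.13 to 98.51% of them in each library, which gave the fragments per gene, and 105 entries repeat an earlier gene name.

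Differences were tested on log2(FPKM + 0.5), which understates changes of low genes, with limma 3.58.1 in R 4.3.3 (trend and robust moderation) over the 10 ligated libraries, with Benjamini-Hochberg adjustment over all tested genes and a threshold of 0.05. Some genes passed the filter only through 1 group, among them Mb21d1, Slfn4 and Tlr9 (through wild type) and Btnl9 (through the knockout). For such genes the lack of overlap between the groups was fixed by the filter. The interaction used all 20 libraries and the 14059 genes at 0.5 FPKM or more in at least 5 of them. Tmem173 was also compared by an exact permutation test. Values are means ± standard error from limma, or FPKM ± SD. Promoters came from RefSeq (GRCm38.p6), the first listed per gene. The fits were checked on simulated data. Python 3.11.15 with pandas 2.3.3, numpy 2.4.6, scipy 1.17.1 and matplotlib 3.10.9 was used.

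Comparison, members and the 49 lists were chosen with earlier results of these data known. Named genes are Tmem173, the 12 largest increases and 12 largest decreases among called protein-coding genes without overlap whose mean reached 1 FPKM in either group, and up to 4 called members per list (the 2 most abundant in lists with fewer than 2 calls), of which a subset appears. Outside this rule, and chosen after their values were seen, are Tbk1, Irf3, Ifnar1, Ifnar2, Stat2, Mb21d1, Aim2, Trex1, Acaca, Srebf1, Dcp2 and the other genes of the closing observations. Alternatives were TPM, quantile normalization, median-ratio scaling, voom on recovered fragments, pseudocounts of 0.1 and 1, a filter at 1 FPKM, no filter, array weights, no robust estimation, 4 groups in the fit, leaving out each library or both outlying ones, and the library type (Xist or Y-linked) as covariate or alone. Voom scaled to total fragments was added after seeing the data.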

Additional observations from a re-analysis of the deposited data

Results flagged for a closer look

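In 7 of 160 groups of 5 libraries (80 genes, 2 groups each) 1 library stood far from the others by Dixon's criterion on the log2 scale, about the 1 in 20 that chance gives. Acacb was high in BDL_Wt_2240 at 5.61 FPKM, against 3.35 to 3.52 in the other wild-type libraries, and Irf9 was low in BDL_Wt_2237 at 12.1, against 14.7 to 15.4. Cd74 was low in BDL_Wt_2235 at 87.4 FPKM, against 135 to 152, while Nsdhl was high there at 33.8, against 22.8 to 24.9. Clec4g was low in BDL_Wt_2237 at 3.92 FPKM, against 6.68 to 8.04, and Btnl9, another endothelial gene, was low in the same library at 0.188, against 0.316 to 0.366. Irf3 in BDL_Wt_2240 measured 14.5 FPKM, against 13.9 to 14.0.

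For 16 of the genes described, the knockout effect after ligation differed from that after sham surgery (limma interaction over 20 libraries, n = 5 per group). Among genes that were lower after ligation the interaction was -2.83 ± 0.61 log2 units for Ifit1 (adjusted p = 0.0496), -2.38 ± 0.47 for Slfn4 (0.0342), -2.17 ± 0.41 for Mx1 (0.0322), -1.99 ± 0.42 for Ly6c2 (0.0397) and -0.82 ± 0.15 for Irf9 (0.0322), all of which were also below 0 after sham surgery. It was -1.60 ± 0.26 for Tlr9 (0.0146), -1.78 ± 0.37 for Tnfaip3 (0.0397), -1.96 ± 0.38 for Hilpda (0.0342), -0.57 ± 0.12 for Bid (0.0397), -3.32 ± 0.61 for Serpinb6b (0.0322) and -3.25 ± 0.66 for Wisp2 (0.0351), whose effects after sham surgery lay between -0.07 and 0.62. Among genes that were higher after ligation it was 1.83 ± 0.28 for Fasn (0.0119), 1.12 ± 0.17 for Acaca (0.0119), 1.12 ± 0.23 for Fads1 (0.0397), 2.54 ± 0.42 for Srebf1 (0.0171) and 0.93 ± 0.18 for Cd300lg (0.0342).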

How the results depend on the processing

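Without a filter, when more low genes were tested, 142 genes differed (15 higher, 127 lower), and 68 list members were called against 105. With array weights 566 differed (228 higher), and with the 4 groups in the fit 1289 (503 higher, 786 lower) and 256 list members. Genes called higher numbered 60 in all, 8 as TPM, 106 after quantile normalization, 138 without BDL_KO_2359 and BDL_KO_2248, and 14 of 193 after scaling to total fragments, an alternative chosen after seeing the data. With library type as a covariate 187 differed (28 higher). Among libraries with Y-linked transcripts alone, and among those with Xist alone, limma called 0 genes, 0 higher, 0 lower and 0 list members, with fewer libraries, and 2232 and 517 genes had an unadjusted p under 0.05. All 290 called genes kept their direction in both, 286 and 224 of them at that unadjusted p. These libraries are part of those that gave the calls, so this is not independent support. For the 278 genes without overlap of the groups, no other direction was possible. Leaving out 1 library gave 105 to 715 genes, 10 to 216 higher, 94 to 499 lower, 55 to 174 list members and a Tmem173 difference of -1.37 to -1.01 log2 units. Interactions called among the genes described went from 16 to 10 with a pseudocount of 0.1 and to 2 as TPM. Irf3 turned to -0.24 as TPM, -0.0075 after quantile normalization, -0.024 without both outlying libraries, -0.024 to 0.088 with 1 library left out (below 0 without BDL_KO_2359), -0.083 with Xist libraries and -0.17 scaled to total fragments, Cd74 to 0.30 without both libraries, and Ifnar1 to 0.022 with Xist libraries. The cause of these changes was not tested. No paired analysis was possible because the titles share no replicate number between groups. At this depth values under 0.5 FPKM rest on few fragments per kilobase.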

Other observations

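Members of 3 families of related genes, chosen after their values were seen, fell in the ligated knockout. Of 11 tested HIN-200 genes, which encode DNA-binding proteins of the nucleus and cytosol in 1 cluster on chromosome 1, 8 fell and none rose (limma), Ifi204 and Ifi205 among them, with a median of -1.71 log2 units, and 9 fell without BDL_KO_2248 and BDL_KO_2359. Ifi211 fell by 2.64 ± 0.36, Ifi209 by 2.56 ± 0.39 and Ifi213 by 2.12 ± 0.27. Of 6 tested Schlafen genes 5 fell, with a median of -1.99, and 5 without both libraries. Slfn4 measured 10.5, 5.87, 18.7, 4.14 and 19.0 FPKM in wild type and 0.037, 0.0673, 0.34, 0.456 and 0.167 in the knockout, and fell by 3.90 ± 0.39, and Slfn1 fell by 3.09 ± 0.39 (adjusted p = 0.00249 and 0.00444). Of 8 tested Ms4a genes, a cluster on chromosome 19 that includes markers of myeloid cells, 5 fell, with a median of -1.51, and 5 without both libraries, among them Ms4a6b by 2.20 ± 0.25 and Ms4a6d by 1.54 ± 0.27. Members of each family share sequence, so single values are uncertain.

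Of 21 interferon genes in the table none reached the filter, and 17 were listed at 0 in all 10 ligated libraries, as was Trex1. Whether a listed 0 means that a gene was not expressed was not tested. Ifnb1 was listed at 0.289 FPKM in BDL_Wt_2237 and at 0 in the other 9. Ifng was listed at 0.0454 in BDL_Wt_2233 and 0.128 in BDL_KO_2371, and at 0 elsewhere.

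Some genes outside the lists, also chosen after their values were seen, changed by large amounts. The matricellular protein gene Wisp2 measured 14.0, 5.87, 26.9, 12.7 and 12.6 FPKM in wild type and 0.229, 0.104, 1.23, 5.46 and 1.64 in the knockout and fell by 3.09 ± 0.60 (limma adjusted p = 0.0275, 0.0558 without BDL_KO_2248 and BDL_KO_2359). The intracellular protease inhibitor Serpinb6b fell by 3.02 ± 0.54 (adjusted p = 0.0184). Wisp2 lost its call without BDL_Wt_2233, BDL_Wt_2236, BDL_Wt_2237, BDL_Wt_2240, BDL_KO_2359 or BDL_KO_2371 (adjusted p up to 0.0892) and Serpinb6b without BDL_Wt_2233, BDL_Wt_2236, BDL_Wt_2240 or BDL_KO_2359 (up to 0.0655). The immunoglobulin A heavy chain constant gene Igha rose by 2.03 ± 0.36 (adjusted p = 0.0184), with 4.26, 1.52, 2.98, 2.15 and 4.57 FPKM in wild type and 15.3, 6.08, 16.0, 11.2 and 25.1 in the knockout, and lost its call without BDL_Wt_2236 (adjusted p = 0.0606). It also differed by 1.53 after sham surgery (adjusted p = 0.0153), and did not pass after ligation as TPM (adjusted p = 0.0608). The endothelial genes Ptprb, Adgrf5 and Btnl9 rose by 0.80 ± 0.15, 0.68 ± 0.15 and 0.89 ± 0.14 (adjusted p = 0.0243, 0.0453 and 0.00996). Btnl9 kept its call when any 1 library was left out, whereas Ptprb lost it without BDL_Wt_2233, BDL_Wt_2236, BDL_Wt_2240 or BDL_KO_2371 (up to 0.0801) and Adgrf5 without BDL_Wt_2233, BDL_Wt_2235, BDL_Wt_2236, BDL_Wt_2237, BDL_KO_2359, BDL_KO_2365 or BDL_KO_2248 (up to 0.133). As TPM none of the 3 passed (adjusted p = 0.139, 0.162 and 0.0705), and Adgrf5 did not pass without BDL_KO_2248 and BDL_KO_2359 either (adjusted p = 0.0887).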
